A study of Homo sapiens with 6 samples.

Results

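The 10 genes described here encode the machinery of 2 repressive chromatin marks. They were taken by gene name from a list, as 10 of the 29153 genes in the deposited table. EZH1, EZH2, SUZ12 and EED are core subunits of Polycomb repressive complex 2 (PRC2), DNMT1, DNMT3A and DNMT3B are DNA methyltransferases, UHRF1 is the partner of DNMT1, and TET2 and TET3 are dioxygenases that act on methylated DNA. All libraries came from HepG2, an established human cell line derived from a liver cancer. Cells of the sh-NC group had received lentivirus with a control short hairpin RNA, and cells of the sh-LINC01977 group had received lentivirus with a hairpin against the long noncoding RNA LINC01977. Both groups were collected at 72 h, with 3 libraries each, and the study's methods describe puromycin selection of infected cells. The knockdown group rests on a single hairpin in 1 cell line, and neither the labels nor the methods say whether the 3 libraries of a group came from separate cultures, so the p-values below measure the spread between these libraries, which may be technical.

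PRC2 methylates lysine 27 of histone H3, a mark that holds developmental genes silent. EZH2, or its less active relative EZH1, carries the catalytic domain, SUZ12 holds the complex together and EED binds the finished mark and stimulates the enzyme. DNA methylation at CpG dinucleotides is set by the de novo enzymes DNMT3A and DNMT3B, and is copied after each round of replication by DNMT1, which UHRF1 brings to hemimethylated DNA. TET enzymes oxidize the methyl group and so open the way to its removal. In adult liver EZH2, DNMT1 and UHRF1 are low, and they are known to rise in dividing cells and in liver tumours.

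Total counts per library were between 49929024 and 60441515. The targeted RNA was close to undetected, at 4, 0 and 16 counts in the controls (sh-NC libraries 1, 2 and 3) and 0, 0 and 4 counts in the knockdown libraries, so these data cannot show whether LINC01977 was reduced, and groups follow the labels alone. Of 13452 genes with a mean FPKM (fragments scaled to gene length and sequencing depth) of at least 0.5, 15.1% had an adjusted p under 0.05 in edgeR, 7.05% higher and 8.07% lower in sh-LINC01977 cells. All 9 liver cell markers examined were detected, and 6 of them, ALB, FGB, APOA1, HNF4A, AFP and SERPINA1, were lower in sh-LINC01977 cells. The summed FPKM of the 9 markers was 4081 to 4443 in the controls and 2875 to 2935 with the knockdown. Of 12 markers of blood, vessel and stromal cells, 10 were in the table and 4 passed the FPKM minimum, of which 0 had an adjusted p under 0.05 in edgeR (3 had an unadjusted p under 0.05) and 2, CD68 and COL1A1, in both DESeq2 and limma, each with a positive log2 fold change. The blood cell marker PTPRC had 4 counts in 1 sh-NC library and 0 in the other 5 libraries. The summed FPKM of these markers was 29.5 to 32.6 in sh-NC and 35.4 to 40.9 in sh-LINC01977 libraries. Mitochondrial genes held 11.7% to 13.5% of control counts and 10.6% to 11.7% of knockdown counts. The part of these differences in the results below was not tested.

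DNMT3B and TET3 were lower in sh-LINC01977 than in sh-NC cells, by 1.48-fold and 1.49-fold, and were the members with an adjusted p under 0.05. None of the others reached that threshold, and none of the 10 genes changed by 2-fold. All 10 genes were in the table, and 9 passed the FPKM minimum. TET2, with a mean FPKM of 0.430, did not, although its counts were 383 to 606 per library, and its values come from a fit of all listed genes. The 2 called genes were 22.2% of the 9 tested, against 15.1% of all tested genes and 8.07% called lower. At the thresholds the study used, 2-fold with an unadjusted P of at most 0.05, the members gave 0 calls in edgeR, DESeq2 and limma (5 of 9 had an unadjusted p under 0.05 in edgeR), while 2.60% of all tested genes passed. The sh-NC and sh-LINC01977 libraries did not overlap for 5 of the 9 (55.6%), which were DNMT1, DNMT3A, DNMT3B, SUZ12 and TET3, against 37.1% of all tested genes. The log2 fold change was negative for 6 and positive for 3, with a median of -0.08 beside -0.001 over all tested genes. In size, the median difference of the members was 0.13 on the log2 scale, below the 0.18 of all tested genes.

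**Figure D1:**
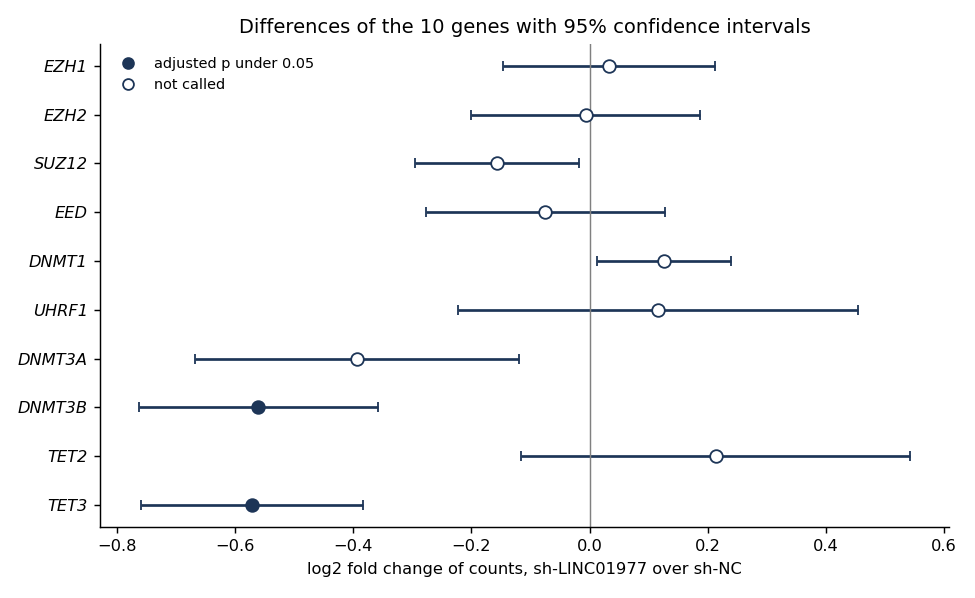
Log2 fold change of counts in sh-LINC01977 over sh-NC for each of the 10 genes, with the 95% confidence interval from edgeR (3 libraries per group); TET2 comes from the fit of all listed genes. DNMT3B (-0.56) and TET3 (-0.57), the filled points, lie farthest from 0, followed by DNMT3A (-0.39).

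Per unit of length, read here as FPKM, the 10 genes fell into tiers. In sh-NC cells UHRF1 was highest, at 14.4 ± 0.42 (SD, n = 3), followed by EZH2 at 11.7 ± 0.65, DNMT3B at 11.7 ± 0.99 and DNMT1 at 11.1 ± 0.32. The last 3 overlapped between neighbours and could not be ordered. SUZ12 stood alone at 4.76 ± 0.18 (SD, n = 3). DNMT3A at 3.12 ± 0.23, EED at 2.73 ± 0.23, TET3 at 2.68 ± 0.11 and EZH1 at 2.58 ± 0.093 (SD, n = 3) overlapped from one to the next. TET2 was last at 0.387 ± 0.064 (SD, n = 3), apart from all others. In sh-LINC01977 cells DNMT3B, DNMT3A and TET3 ranked lower than in the controls. DNMT3B, at 8.27 ± 0.76 (SD, n = 3), no longer overlapped EZH2 or DNMT1 and lay alone between them and SUZ12. TET3, at 1.89 ± 0.14 (SD, n = 3), no longer overlapped EED or EZH1, and DNMT3A, at 2.48 ± 0.41 (SD, n = 3), ranked behind them, with libraries that overlapped those of both, whereas in sh-NC cells they had overlapped EED and lain above EZH1.

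**Figure D2:**
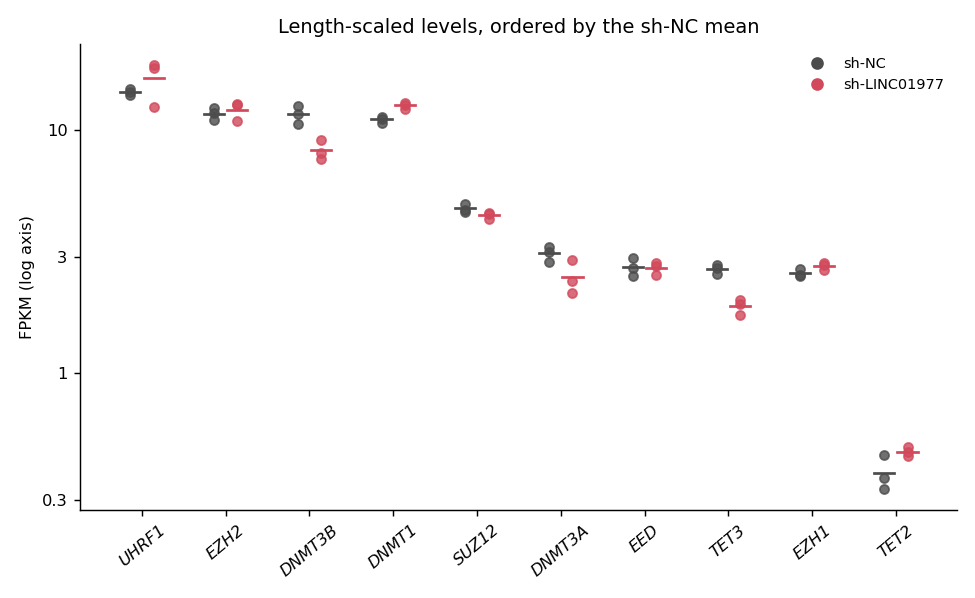
FPKM of each gene on a log axis, with 1 point per library and a bar at the mean of the 3 libraries of a group, genes ordered by the sh-NC mean. DNMT3B moved from 11.7 to 8.27 and out of the tier of EZH2 and DNMT1, and TET3 moved from 2.68 to 1.89 and away from EED and EZH1.

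Among the PRC2 genes, neither catalytic subunit passed the test. EZH2 (ENSG00000106462, GRCh38 chromosome 7, 148807383 to 148884321, minus strand) had 63.6, 69.9 and 66.4 CPM (counts scaled to library size and by TMM) in sh-NC libraries 1, 2 and 3, and 59.5, 71.3 and 68.1 in the sh-LINC01977 libraries. The libraries of one group lay within the span of the other, and the lowest and the highest value were both from sh-LINC01977 cells. Its log2 fold change was -0.01 (standard error, SE, 0.081, and adjusted p = 0.967, edgeR), a sign that turned positive with library totals (0.06) or upper-quartile scaling (0.03). The 95% interval of the ratio of sh-LINC01977 to sh-NC was 0.870 to 1.14. EZH1 (ENSG00000108799, chromosome 17, 42700275 to 42745049, minus strand) had 24.0, 22.4 and 22.0 CPM in sh-NC and 23.5, 24.3 and 22.2 CPM in sh-LINC01977 libraries, and the groups overlapped. Its log2 fold change was 0.03 (SE 0.076, adjusted p = 0.809, edgeR), and the 95% interval of the ratio was 0.903 to 1.16.

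The structural subunits of PRC2 were also close between the groups. SUZ12, the scaffold (ENSG00000178691, chromosome 17, 31937018 to 32001045, plus strand), had 39.4, 37.8 and 40.7 CPM in sh-NC and 36.0, 34.6 and 35.1 CPM in sh-LINC01977 libraries. All 3 knockdown libraries lay below all 3 controls, but the distance was small. The log2 fold change was -0.16 (SE 0.058, adjusted p = 0.123, edgeR), and its sign was negative in every alternative run, from -0.18 to -0.08. The pseudogene SUZ12P1, which can share reads with SUZ12, had 4.06 to 6.37 CPM over the 6 libraries. EED, the subunit that reads the mark (ENSG00000074266, chromosome 11, 86244544 to 86278813, plus strand), had 22.5, 24.0 and 26.1 CPM in sh-NC and 23.5, 21.7 and 23.8 CPM in sh-LINC01977 libraries. The groups overlapped, and the log2 fold change was -0.08 (SE 0.085, adjusted p = 0.593, edgeR). The summed FPKM of EZH2, SUZ12 and EED was 18.3, 19.7 and 19.7 in sh-NC and 18.2, 19.7 and 20.0 in sh-LINC01977 libraries, and the groups overlapped. This sum, of which EZH2 is the largest part, was chosen after the values were seen.

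**Figure D3:**
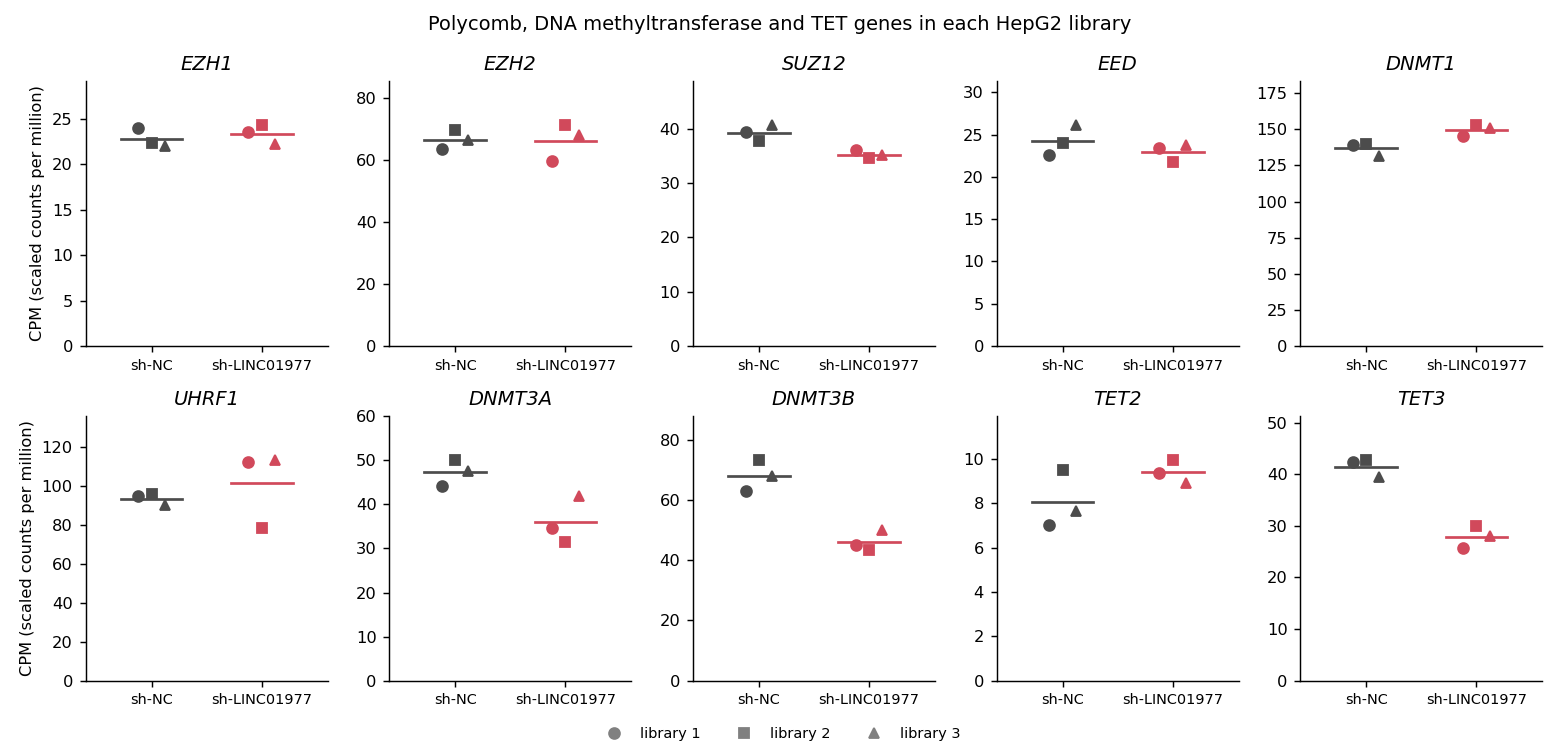
CPM of each gene in each library, with a separate axis from 0 for each gene, marker shapes for the library number and bars at group means. DNMT3B (62.97 to 73.36 against 43.3 to 50.17 CPM) and TET3 (39.4 to 42.78 against 25.64 to 29.99 CPM) show the widest gaps between groups, and UHRF1 has 1 knockdown library at 78.07 CPM below all others.

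DNMT1 and UHRF1, the pair that copies methylation at replication, had positive log2 fold changes that did not pass the test. DNMT1 (ENSG00000130816, chromosome 19, 10133345 to 10231286, minus strand) had 139.5, 140.0 and 131.8 CPM in sh-NC and 145.2, 152.9 and 150.7 CPM in sh-LINC01977 libraries. The groups did not overlap, and the lowest knockdown library was above the highest control. The log2 fold change was 0.13 (SE 0.048, adjusted p = 0.129, edgeR). With library totals in place of TMM it was 0.19 with an adjusted p of 0.0381 from edgeR, and the alternatives together gave adjusted p between 0.0381 and 0.313. Library totals also moved the tested genes as a whole upward, to a median of 0.065 from -0.001 with TMM. The interval of DNMT1 holds S1PR2 on the same strand, which had at most 203 counts, against 6907 or more for DNMT1. UHRF1 (ENSG00000276043, chromosome 19, 4903080 to 4962154, plus strand) had 94.7, 95.5 and 89.9 CPM in sh-NC and 112.2, 78.1 and 113.3 CPM in sh-LINC01977 libraries. Libraries 1 and 3 of the knockdown were above every control and library 2 was below every control, which gave the widest relative spread of the 10 genes. Its log2 fold change was 0.12 (SE 0.14, adjusted p = 0.628, edgeR). Without sh-LINC01977 library 2 it was 0.27 with an adjusted p of 0.0428 from edgeR, where the full span of its alternatives was 0.0428 to 0.931.

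Both de novo methyltransferases had lower means in sh-LINC01977 cells, and DNMT3B passed the test. DNMT3B (ENSG00000088305, chromosome 20, 32762385 to 32809356, plus strand) had 63.0, 73.4 and 67.9 CPM in sh-NC libraries 1, 2 and 3, and 44.9, 43.3 and 50.2 CPM in the sh-LINC01977 libraries. The highest knockdown library was well below the lowest control. From 68.1 ± 5.2 to 46.1 ± 3.6 CPM (SD, n = 3 each), its log2 fold change was -0.56 (SE 0.085, adjusted p = 0.00769, edgeR), and 88.2% of all tested genes differed by less. It was called in every alternative run, with a log2 fold change between -0.63 and -0.45 and an adjusted p of at most 0.0318. DNMT3A (ENSG00000119772, chromosome 2, 25227855 to 25342590, minus strand) had 44.2, 50.1 and 47.5 CPM in sh-NC and 34.7, 31.4 and 41.9 CPM in sh-LINC01977 libraries. The groups did not overlap in CPM, with knockdown library 3 close to the lowest control, and in FPKM they overlapped, at 2.93 in that library and 2.88 in the lowest control. Its log2 fold change was -0.39 (SE 0.12, adjusted p = 0.0666, edgeR). DESeq2 gave -0.40 with an adjusted p of 0.0133, and leaving out sh-LINC01977 library 3 gave -0.52 with an adjusted p of 0.0247 from edgeR, within a range of 0.0133 to 0.162 over all alternatives. The summed FPKM of DNMT3A and DNMT3B went from 14.8 ± 1.2 to 10.7 ± 1.2 (SD, n = 3 each), with no overlap (p = 0.1 by exact two-sided permutation, the lowest value open to 3 libraries against 3). In bulk RNA, fewer cells with a transcript and less of it per cell cannot be told apart, here and in all results below.

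Of the TET genes, TET3 was lower in sh-LINC01977 cells and TET2 did not pass the test. TET3 (ENSG00000187605, chromosome 2, 73986404 to 74108176, plus strand) had 42.3, 42.8 and 39.4 CPM in sh-NC and 25.6, 30.0 and 28.1 CPM in sh-LINC01977 libraries. Every knockdown library was below every control, by a gap wider than the spread within either group. From 41.5 ± 1.8 to 27.9 ± 2.2 CPM (SD, n = 3 each), its log2 fold change was -0.57 (SE 0.079, adjusted p = 0.00565, edgeR), and 88.6% of all tested genes differed by less. It too was called in every alternative run, with a log2 fold change between -0.63 and -0.35 and an adjusted p of at most 0.0267. TET2 (ENSG00000168769, chromosome 4, 105145875 to 105279816, plus strand) had 7.03, 9.51 and 7.63 CPM in sh-NC and 9.38, 9.96 and 8.90 CPM in sh-LINC01977 libraries. The groups overlapped, since the second control was above 2 knockdown libraries. Its log2 fold change was 0.21 (SE 0.14, adjusted p = 0.453, edgeR over all listed genes). TET1, the remaining member of the family, was read from the list of DNA methylation partners and had 23.7, 24.3 and 19.7 CPM in sh-NC and 18.6, 16.7 and 14.6 CPM in sh-LINC01977 libraries. The groups did not overlap, and the log2 fold change was -0.44 (adjusted p = 0.0631 from edgeR). DESeq2 gave TET1 an adjusted p of 0.0130, in a range of 0.0130 to 0.160 over the alternatives.

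Because DNMT3B and TET3 are the called members, the 250 bases just before their annotated transcript starts are shown, from RefSeq on GRCh38.p14, 5′ to 3′ on the gene's strand, with each CpG dinucleotide, the letters that DNA methyltransferases and TET enzymes act on, in capitals. All 10 genes had a start in that table, 20 starts in all. The DNMT3B window, chr20:32779602-32779851 (plus strand), precedes a start inside the interval that the gene has in the count table. Of the TET3 windows, chr2:73984660-73984909 (plus strand) lies before the interval of the count table and chr2:74002442-74002691 (plus strand) lies inside it. None of the 3 windows overlaps an annotated exon in GENCODE 29.
DNMT3B: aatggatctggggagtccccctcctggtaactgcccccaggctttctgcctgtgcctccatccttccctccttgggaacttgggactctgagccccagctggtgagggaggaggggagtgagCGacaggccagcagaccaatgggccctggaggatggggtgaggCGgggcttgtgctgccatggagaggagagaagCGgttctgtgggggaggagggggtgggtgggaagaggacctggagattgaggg
TET3, first start: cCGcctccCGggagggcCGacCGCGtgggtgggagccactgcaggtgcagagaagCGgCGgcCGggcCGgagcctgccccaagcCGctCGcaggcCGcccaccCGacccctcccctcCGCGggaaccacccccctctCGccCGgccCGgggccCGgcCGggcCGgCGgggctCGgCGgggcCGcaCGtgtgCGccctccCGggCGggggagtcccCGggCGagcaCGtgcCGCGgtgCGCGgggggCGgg
TET3, second start: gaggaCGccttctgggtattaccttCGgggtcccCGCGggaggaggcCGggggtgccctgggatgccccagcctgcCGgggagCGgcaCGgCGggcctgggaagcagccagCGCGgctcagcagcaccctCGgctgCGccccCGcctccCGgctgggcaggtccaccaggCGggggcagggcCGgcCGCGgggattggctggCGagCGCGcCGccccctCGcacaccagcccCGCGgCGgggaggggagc

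The sequences differ in CpG content. The DNMT3B window holds 3 CpG dinucleotides, fewer than any of the other 19 windows of these genes, and 22.9% of all 35116 windows in the table hold fewer. That window lies inside the gene, whose interval begins at 32762385. The bases before that position were not among the windows, so their CpG content was not read. The TET3 windows hold 37 and 27, and 96.0% and 82.3% of all windows hold fewer, where the median is 11. Windows were searched on both strands for 3 motifs. An E2F-type motif, written as TTCCCGC with the second form TTGGCGC, is in 7.80% of all windows. A GC box, which is the run GGGCGG, is in 42.6% of them. The CCAAT box, searched by the letters of its name, is in 32.0%. The DNMT3B window held 1 CCAAT match and none of the others. The first TET3 window held 1 E2F-type match and 3 GC boxes, and the second 1 GC box and 1 CCAAT match. Of the other 8 genes, SUZ12 and UHRF1 had a window with an E2F-type match. Counts are per gene, and the count table names 5 transcripts for DNMT3B and 3 for TET3, so the start used in these cells was not resolved.

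Ratios within a library do not depend on scaling between libraries, and 4 of them were compared by exact two-sided permutation tests on the log2 ratio of FPKM. EZH2 exceeded EZH1 by 4.11, 4.85 and 4.68 times in sh-NC and 3.93, 4.55 and 4.77 times in sh-LINC01977 libraries. The groups overlapped (p = 0.6 by exact permutation, 0.8 after adjustment over the 4 ratios). The ratio of TET2 to TET3 was 0.124, 0.165 and 0.144 in sh-NC and 0.272, 0.247 and 0.235 in sh-LINC01977 libraries, 1.75-fold higher in the latter. There was no overlap, and leaving out any 1 library kept the log2 difference between 0.71 and 0.91 (exact permutation p = 0.1, the smallest possible, and 0.2 after adjustment). DNMT3A to DNMT3B was 0.270, 0.263 and 0.269 in sh-NC and 0.296, 0.278 and 0.321 in sh-LINC01977 libraries. The groups did not overlap, but the difference was 1.12-fold (exact permutation p = 0.1, and 0.2 after adjustment). DNMT1 to UHRF1 was 0.774, 0.769 and 0.770 in the controls, but 0.679, 1.03 and 0.698 with the knockdown. The controls were almost identical to each other, while knockdown library 2 lay above them and libraries 1 and 3 below (exact permutation p = 1.0). Another ratio, chosen after the values were seen, was that of the maintenance enzyme DNMT1 to DNMT3B. It was 1.05, 0.901 and 0.917 in sh-NC and 1.53, 1.67 and 1.42 in sh-LINC01977 libraries, so that transcripts of the pair were about level in the controls and DNMT1 led in every knockdown library. DNMT3B made up 45.0% ± 1.6 of the summed FPKM of the 3 methyltransferases in sh-NC and 35.3% ± 1.3 in sh-LINC01977 libraries (SD, n = 3 each). That sum itself was 25.9 ± 1.3 and 23.4 ± 1.4 (SD, n = 3 each; exact two-sided permutation test, p = 0.2).

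**Figure D4:**
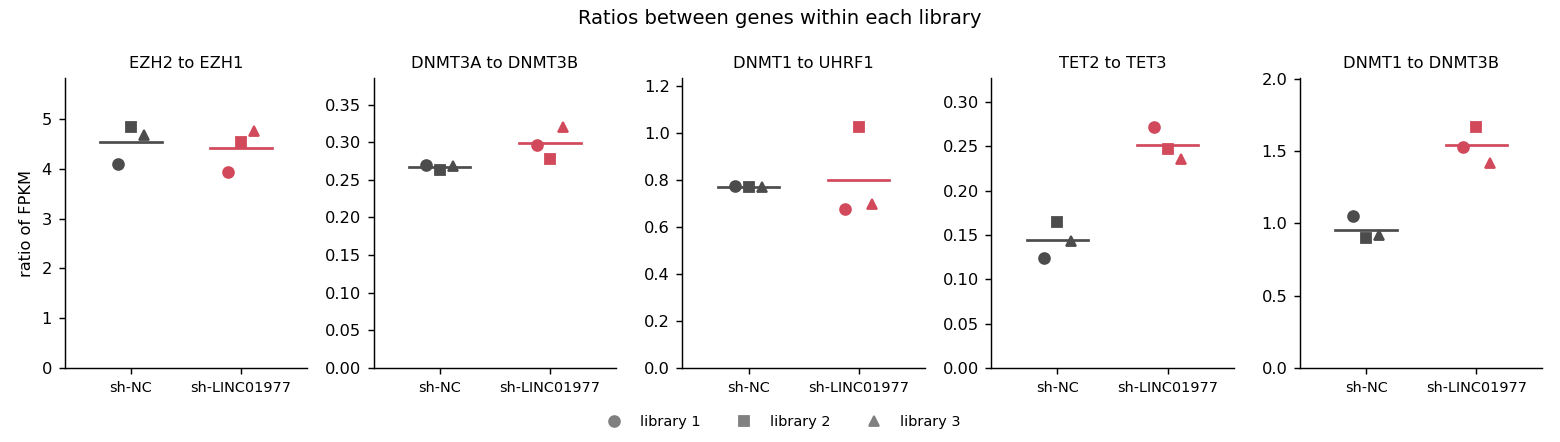
Ratio of FPKM between the named genes in each library, on axes from 0, with marker shapes for the library number and bars at group means. TET2 to TET3 and DNMT1 to DNMT3B were higher in all 3 sh-LINC01977 libraries than in any sh-NC library, and DNMT1 to UHRF1 shows knockdown library 2 (1.028) away from the other 5 libraries.

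Partners of the members were read from gene lists. Of 10 tested accessory subunits of PRC2, 1 rose and none fell. The one that rose was AEBP2, a DNA-binding subunit, from 32.4, 29.1 and 31.0 CPM to 38.0, 37.3 and 37.7 CPM (log2 fold change 0.29, adjusted p = 0.0280 from edgeR). AEBP2 lost the call without the filter on low values (adjusted p = 0.0832 from edgeR), with the replicate block (0.0638) and without any 1 library other than sh-NC library 1 (0.0731 to 0.0799). JARID2, which helps to bring PRC2 to its targets, was at 0.25 (adjusted p = 0.0631 from edgeR). Of the 25 genes of PRC1, the complex that ubiquitinates histone H2A and binds the PRC2 mark, 4 fell and none rose, or 16.0% called beside 15.1% of all tested genes (8.07% lower). PCGF5, a RING finger partner in variant PRC1, fell by 0.48 on the log2 scale, from 98.2, 98.6 and 105.7 CPM to 74.9, 70.1 and 71.3 CPM (adjusted p = 0.00301 from edgeR). SCML2 and SCMH1, related PRC1-associated proteins, fell by 0.81 and 0.37 (adjusted p = 0.0224 and 0.0229 from edgeR). RYBP, another subunit of variant PRC1, fell by 0.35 (adjusted p = 0.0423 from edgeR). Of these 4, PCGF5 was called in every alternative run, and the highest adjusted p of SCML2, SCMH1 and RYBP were 0.0773, 0.0739 and 0.111. The catalytic PRC1 subunit RNF2 had a log2 fold change of -0.13 (adjusted p = 0.338 from edgeR).

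Of the 5 tested genes that remove the Polycomb marks, edgeR called 0 at an adjusted p under 0.05 and 1 at an unadjusted p under 0.05, limma called 0, and DESeq2 called 1, KDM6B. KDM6B, a demethylase of lysine 27, had 26.7, 29.4 and 27.2 CPM in sh-NC and 24.3, 19.8 and 15.8 CPM in sh-LINC01977 libraries, with no overlap (log2 fold change -0.48, adjusted p = 0.0902 from edgeR and 0.0216 from DESeq2). Its relative KDM6A was at 0.06 (adjusted p = 0.803 from edgeR), and without sh-LINC01977 library 3 it was at -0.01. In the 3 lists together, 5 of 40 tested genes were called, or 12.5% beside 15.1% of all tested genes, and their median log2 fold change was -0.01. With DESeq2 the count was 8, and with 1 library left out it was 1 to 4, the fewest without sh-NC library 2 or sh-LINC01977 library 2 or 3.

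Of 29 tested partners of DNA methylation, 5 fell and 1 rose, or 20.7% called, beside 15.1% of all tested genes, of which 8.07% fell and 7.05% rose. IDH1 and IDH2, whose cytosolic and mitochondrial enzymes make the alpha-ketoglutarate that TET enzymes consume, fell by 0.30 and 0.48 on the log2 scale (adjusted p = 0.00816 and 0.0116 from edgeR). IDH1 went from 610.7, 611.6 and 657.4 CPM to 492.2, 514.8 and 521.4 CPM, and IDH2 from 196.2, 216.2 and 178.8 CPM to 151.4, 135.7 and 136.3 CPM, without overlap in either gene. Both were called in every alternative run. MBD3, a relative of the readers of methylated DNA, and ZBTB33, such a reader, fell by 0.39 and 0.31 (adjusted p = 0.0194 and 0.0420 from edgeR), and each lost the call in some alternatives, where the highest adjusted p were 0.0626 and 0.119. MAT2B, the regulatory subunit of the enzyme that makes the methyl donor S-adenosylmethionine, rose by 0.35 (adjusted p = 0.0159 from edgeR), and it lost the call without sh-LINC01977 library 1 (0.0506) or 3 (0.0514) and with the replicate block (0.0562). The catalytic subunit MAT2A was at -0.10 (adjusted p = 0.165 from edgeR). UHRF2, the relative of UHRF1, was at 0.17 (adjusted p = 0.496 from edgeR). DNMT3L, a catalytically inactive cofactor of the de novo enzymes, had 7 to 16 counts in the controls and 0, 0 and 4 in the knockdown libraries, too few to read a direction. The median of this list was 0.03 on the log2 scale. With 1 library left out, 2 to 4 genes of the list were called instead of 6, the fewest without sh-LINC01977 library 1.

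Genes that the 2 marks are known to keep silent were mostly below the FPKM minimum. Of the 39 HOX genes, the classical PRC2 targets, 25 were in the table and 6 passed the FPKM minimum, of which 3 were called, among them HOXD1 and HOXD4, which fell. HOXD1 had 43.8, 48.3 and 50.3 CPM in sh-NC and 24.8, 25.4 and 28.0 CPM in sh-LINC01977 libraries (log2 fold change -0.86, adjusted p = 0.00160 from edgeR). HOXD4 fell by 0.78 (adjusted p = 0.0302 from edgeR). The highest adjusted p of HOXD4 over the alternatives was 0.0926, and with 1 library left out 1 or 2 HOX genes were called. The 19 HOX genes below the minimum had at most 81 counts in a library. Of 38 germline genes, which promoter methylation keeps silent in body cells, 15 were in the table and 2 passed the minimum. Of these 2, edgeR called 1, too few tested genes to compare with the 15.1% of all tested genes. TEX19 rose from 20.8, 17.2 and 19.0 CPM to 58.8, 56.9 and 47.0 CPM (log2 fold change 1.51, adjusted p = 9.9e-04 from edgeR), in every alternative run. PAGE1 was at 0.62 (adjusted p = 0.481 from edgeR), and the 13 below the minimum had at most 117 counts in a library.

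Since DNMT1, UHRF1 and EZH2 are known to follow the cell cycle, 39 genes of S phase and division were set beside them. Of these, 6 rose and none fell, or 15.4% against 7.05% of all tested genes called higher. With library totals 11 were called, but under that scaling the tested genes as a whole lay higher. Their median was 0.065 on the log2 scale, against -0.001 with TMM. The 7.05% belongs to TMM, and the part of this shift in the 11 calls was not tested. MCM6 and MCM7, parts of the replicative helicase, rose by 0.75 and 0.31 on the log2 scale (adjusted p = 0.00100 and 0.00658 from edgeR). TOP2A, the topoisomerase of dividing cells, rose by 0.39, and RRM1, which makes deoxynucleotides with RRM2, by 0.41 (adjusted p = 0.00160 and 0.00549 from edgeR). BUB1 and RRM2 rose by 0.29 and 1.28 (adjusted p = 0.00811 and 0.0415 from edgeR). The replication clamp PCNA, which is in the list of methylation partners, was at -0.09 (adjusted p = 0.457 from edgeR). The median of the 39 was 0.11, beside 0.13 for DNMT1, 0.12 for UHRF1, -0.01 for EZH2, -0.56 for DNMT3B and -0.57 for TET3. The summed FPKM of the list was 927.9 to 966.0 in sh-NC and 1083 to 1089 in sh-LINC01977 libraries. FPKM are scaled to library totals and not by TMM, so these sums carry the same upward shift, whose part was not tested. Whether the differences of this list have a part in the values of the members was not tested.

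**Figure D5:**
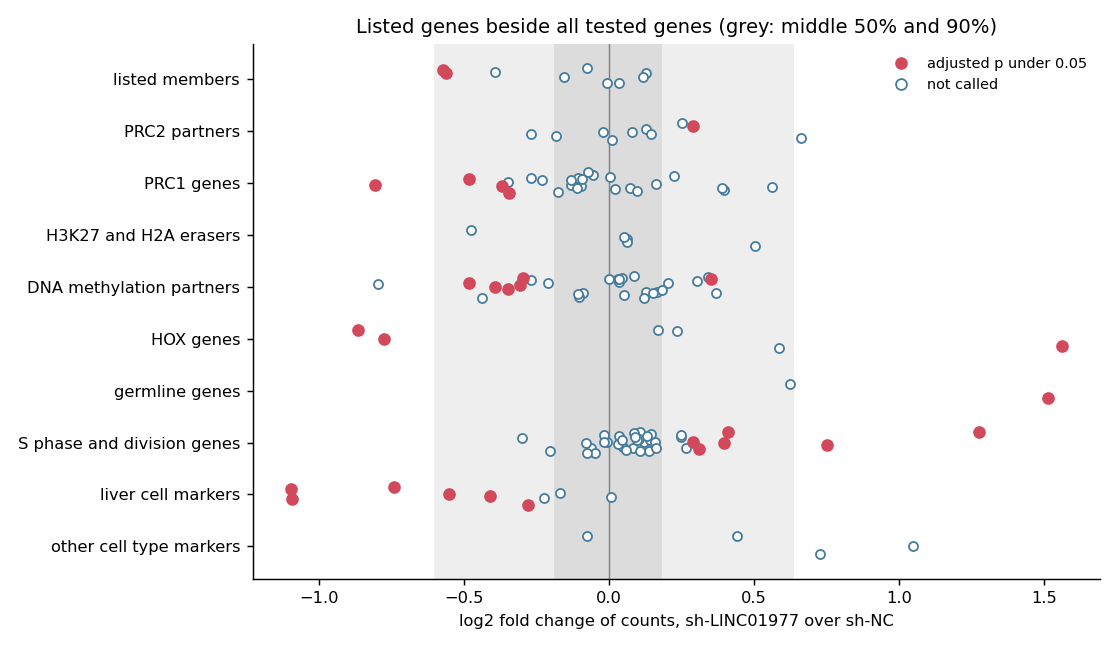
Log2 fold change of every tested gene of each list, with filled points for an adjusted p under 0.05 in edgeR. Grey bands hold the middle 50% (-0.19 to 0.18) and the middle 90% (-0.60 to 0.63) of all 13452 tested genes; the 6 called liver markers and the 4 called PRC1 genes lie to the left of 0, and the 6 called S phase and division genes to the right.

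For the member with the highest count in each family, the 3 genes with the most similar profile over the 6 libraries were found among 9580 genes with at least 10 CPM on average, by the root mean square difference of centred log2 CPM. This is a description, with no test. TET3, whose own profile had an SD of 0.32 on the log2 scale, was most like GLYCTK (0.043), SSU72 (0.049) and ALKBH3 (0.052). DNMT1, with an SD of 0.079, was most like NHP2 (0.014), PLAA (0.014) and RGPD5 (0.016), and EZH2, with an SD of 0.095, was most like UBA2 (0.025), COLCA2 (0.025) and AC026412.1 (0.027). The profiles of DNMT1 and EZH2 vary little, so that likeness to them says mainly that a gene varied little too.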

How the data were processed

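TRIzol-extracted RNA of 3 sh-NC and 3 sh-LINC01977 HepG2 samples was sequenced by Illumina HiSeq. The submitters' processing notes name bcl2fastq 2.0, HISAT2, StringTie, DESeq2, limma and the build hg38. Per gene and library, the authors deposited a raw count, without normalization, and an FPKM value, scaled to length and depth. Counts in multiples of 4 were frequent, for a reason that is not stated, so a small count may stand for fewer separate reads. Whether counting used strand is not stated. Gene intervals are those given with the counts, and their annotation version is not stated. GENCODE 29 on GRCh38 was used for the exon overlap of the windows.

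The main test was edgeR 4.0.16 in R 4.3.3 (quasi-likelihood, TMM scaling, Benjamini-Hochberg adjustment over the 13452 genes whose mean FPKM was 0.5 or more). Genes below the filter were read from a fit of all listed genes. CPM are counts scaled to a common TMM-adjusted library size, whereas FPKM are scaled to library totals without TMM. Single values and ratios were compared by exact two-sided permutation, which with 3 against 3 gives no p under 0.1. The script was tested on simulated data with changes larger than those of any member, so recovery of differences of the members' size was not tested. Alternatives used DESeq2 1.42.0, limma 3.58.1 on log2(FPKM + 0.1), other scalings, filters and pseudocounts, counts divided by 4, a replicate block and each library left out.

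The members and gene lists were chosen with earlier results of these data known. Named genes are the members, LINC01977, up to 4 genes per list and direction with the smallest adjusted p under 0.05, the 3 genes most alike to 1 member per family, and RNF2, KDM6A, KDM6B, TET1, DNMT3L and UHRF2. SUZ12P1, S1PR2, JARID2, MAT2A, PAGE1, PCNA, BUB1 and RRM2 were named after their values were seen. Some called genes of the lists are counted but not reported here by name.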

Additional observations from a re-analysis of the deposited data

How the results depend on the processing

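DNMT3B and TET3 remained called in all 18 alternatives for each, and the count of called members was 2 or 3 throughout. No member passed the 2-fold thresholds under any of them. The 5 called genes among the other Polycomb genes became 3 without a filter on low values, 8 with DESeq2 and 2 with the replicate block, and 1 to 4 with 1 library left out (3 without sh-NC library 1, 1 without sh-NC library 2, 2 without sh-NC library 3, and 1 without sh-LINC01977 library 2 or 3). Called DNA methylation partners went from 6 to between 2 and 4 with 1 library left out (2 without sh-LINC01977 library 1, and 3 without its library 2 or 3 or without sh-NC library 3). The 3 called HOX genes became 1 or 2 with 1 library left out (1 without sh-NC library 1 or 3 or sh-LINC01977 library 1 or 2). The 6 called S phase and division genes became 11 with library totals and 10 with limma on log2(FPKM + 0.1), log2(FPKM + 1) or log2(FPKM + 0.01). With library totals the tested genes as a whole lay higher, at a median of 0.065 against -0.001 with TMM. The log2 fold change of EZH2 turned positive with a mean FPKM of at least 1 (0.001), library totals (0.059), upper quartile (0.025), limma with pseudocounts of 0.1 (0.054), 1 (0.050) and 0.01 (0.054), without sh-NC library 2 (0.029) and without sh-LINC01977 library 1 (0.067), and with 1 library left out it spanned -0.062 to 0.067. KDM6A spanned -0.014 (without sh-LINC01977 library 3) to 0.190. With 1 library left out, the log2 difference of the EZH2 to EZH1 ratio ranged from -0.115 to 0.038, that of DNMT1 to UHRF1 from -0.163 (without sh-LINC01977 library 2) to 0.136, and that of the summed FPKM of EZH2, SUZ12 and EED, chosen after seeing the data, from -0.025 (without sh-NC library 1) through -0.015 and -0.004 (without sh-LINC01977 library 3 and 2) to 0.052. The causes were not tested.

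Whether replicate numbers pair the libraries is not stated. Deviations of same-numbered libraries from their group means had correlations of -0.034, 0.005 and 0.061. Those of libraries with other numbers were between -0.054 and 0.052. No pairing showed in these values, but with 3 libraries per group they cannot decide whether there was one. With the number as a replicate block, the adjusted p from edgeR was 0.0281 for DNMT3B and 0.0232 for TET3, 2 members were called, and AEBP2, SCMH1, RYBP, MAT2B, ZBTB33 and HOXD4 were among the named genes no longer called, while TET1 was (adjusted p = 0.0464). The alternatives for TET2, the ratio of DNMT1 to DNMT3B and the summed FPKM were chosen after seeing the data. With 3 libraries per group no exact permutation p can fall under 0.1, and genes with a few counts, such as LINC01977 and DNMT3L, cannot be read at this depth.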
